A study of Mus musculus with 4 samples.

Results

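A set of 33 genes of the NF-kB pathway was examined in single cells of mouse tumours: 5 subunits of the transcription factor, 6 inhibitors of the IkB family, 4 kinases, 8 adaptors and ubiquitin ligases, 2 feedback regulators and 8 target genes. The members were chosen by gene symbol, and all 33 of them were found among the 32285 genes of each library and had at least 1 transcript counted in all 4 libraries. The libraries came from MC38b tumours (a line named after the colon carcinoma MC38) in mice that had received saline (PBS; 2 libraries), anti-mouse PD-1 (1 library) or anti-mouse PD-1 with anti-mouse TL1A (1 library, called the combination library below). Mice were killed 24 h after dose 2, and droplet sequencing was done on a mixture of sorted T cells, other CD45+ cells and CD45- cells in the proportion 9:9:2. Animals were processed singly and pooled before sorting (2 for saline and 4 for treatment, per the labels), and it is not stated whether each PBS library is 1 animal. The age, sex and strain of the mice, the doses and the antibody clones are not given in the sources used here.

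NF-kB is a family of dimeric transcription factors that inhibitors of the IkB family hold in the cytoplasm. In the canonical arm a kinase complex that contains the products of Ikbkb and Chuk marks the inhibitor for degradation, after which dimers of Rela, Rel and Nfkb1 enter the nucleus. In the non-canonical arm the kinase encoded by Map3k14 stabilises when adaptors of the Traf and Birc families release it, which leads to processing of the Nfkb2 product and to dimers with Relb. Receptors of the TNF family use both arms, and TL1A, the product of Tnfsf15, acts on the receptor DR3, encoded by Tnfrsf25. Much of the activity of the pathway lies in protein modification and location, which transcript counts do not measure, and several members are known targets of the factor itself.

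Because several members are controlled by the factor they encode or inhibit, the promoters were searched for its binding motif. Of the 33 members, 27 had a promoter entry in RefSeq (GRCm38.p6, 250 bases before to 50 after the start site), and 13 of these 27 held at least 1 match to the consensus kappa-B motif on either strand, against 9.55% of the 27025 genes with an entry. A match is a description of letters and was not tested for binding. The 150 bases before the start site are shown for 6 members on which the results below turn, from each functional class but the kinases, with the motif matches in capitals and overlapping matches joined, written 5′ to 3′ on the strand of the gene.
Nfkb2, chr19:46304587-46304736, plus strand: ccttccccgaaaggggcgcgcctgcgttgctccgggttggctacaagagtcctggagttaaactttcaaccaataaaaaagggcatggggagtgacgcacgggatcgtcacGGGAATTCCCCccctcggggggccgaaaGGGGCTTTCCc
Rel, chr11:23770970-23771119, minus strand: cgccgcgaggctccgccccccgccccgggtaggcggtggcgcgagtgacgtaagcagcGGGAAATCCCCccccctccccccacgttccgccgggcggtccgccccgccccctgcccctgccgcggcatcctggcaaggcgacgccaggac
Nfkbia, chr12:55492648-55492797, minus strand: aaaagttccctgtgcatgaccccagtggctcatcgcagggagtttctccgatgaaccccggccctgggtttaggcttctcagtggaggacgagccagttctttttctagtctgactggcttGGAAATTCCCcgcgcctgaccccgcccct
Tnfaip3, chr10:19015411-19015560, minus strand: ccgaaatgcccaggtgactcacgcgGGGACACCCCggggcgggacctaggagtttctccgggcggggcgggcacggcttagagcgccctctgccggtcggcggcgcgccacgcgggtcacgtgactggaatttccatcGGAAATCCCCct
Sod2, chr17:13007689-13007838, plus strand: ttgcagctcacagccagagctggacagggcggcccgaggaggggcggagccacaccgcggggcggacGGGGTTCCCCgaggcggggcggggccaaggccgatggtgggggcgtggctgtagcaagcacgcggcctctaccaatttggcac
Tank, chr2:61592947-61593096, plus strand: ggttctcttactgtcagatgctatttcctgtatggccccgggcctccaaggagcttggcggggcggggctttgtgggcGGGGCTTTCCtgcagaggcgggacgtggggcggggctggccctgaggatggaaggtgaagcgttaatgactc
Nfkb2 held a pair of separate matched stretches close to its start site, Tnfaip3 held another pair, and the other 4 genes held 1 stretch each in these windows. Only 1 promoter entry is shown per gene, and Nfkb2, Tnfaip3 and Tank had further entries. Those of Nfkb2 and Tnfaip3 held no match in the 150 bases before the start site, and those of Tank held 1 each. The entry of Traf1, which encodes an adaptor described below, held no match in its window.

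The deposited counts were of unique molecular identifiers (UMIs), each standing for 1 captured transcript. The libraries held 6448 to 13231 barcodes and 78648222 to 142600208 UMIs, with a median of 7645.5 and 7798 UMIs per barcode in the PBS pair, 7098 in the combination library and 3588 in the anti-PD-1 library, which was the shallowest. The anti-PD-1 library shared 1255 and 1778 barcodes with the PBS libraries and the PBS libraries shared 673 with each other, whereas 21 to 39 were shared with the combination library. One copy of a shared barcode usually held few UMIs (median ratio of 37.8 to 86.7 between the copies in the first 3 pairs), and low copies were removed, which took 14.1% of the barcodes of the anti-PD-1 library, 2.36% and 7.29% of the PBS pair and 0.0268% of the combination library. After filters and removal of doublets 5541 to 10055 cells per library remained. Clusters were named from marker genes, so each class is a population resembling the named cell type, and the ending "-like" is dropped below. The CD45-negative class held fibroblast markers at a summed 2002 to 3401 CPM (counts scaled to the same total in every class and library), whereas the tumour epithelial markers Epcam, Krt8, Krt18, Krt19 and Cldn4 summed to at most 0.41 CPM. Tumour cells and stroma were therefore not told apart. CPM of the class is the unit of every level below, and levels are compared between classes, never between genes, since counts of captured transcripts differ between genes for technical reasons too.

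Levels across cell classes showed 1 population above the rest. Mature dendritic cells (36 to 57 cells per library, led by Il12b, Fscn1, Ccr7 and Ccl22, genes of dendritic cells that have matured to migrate and prime T cells) had the highest mean level among 14 classes for 17 of the 33 members (51.5%). Of 10205 genes that reached 20 CPM in at least 1 class, 8.7% had their highest level there. For 13 members (39.4%) all 4 libraries of mature dendritic cells lay above every library of every other class, against 4.02% of all such genes. The 13 were Nfkb2, Rel, Relb, Nfkbib, Nfkbie, Ikbkb, Map3k14, Traf1, Traf3, Birc2, Bcl2a1a, Bcl2a1b and Bcl2a1d, and the ranges of Rela, Chuk, Traf6 and Tank overlapped those of another class. Classes were built without the members among the genes used for clustering, and the class with the highest level was the same for 33 of 33 members when they were used. Classes come from the same cells as the levels, so this order is a description and no test was made.

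**Figure D1:**
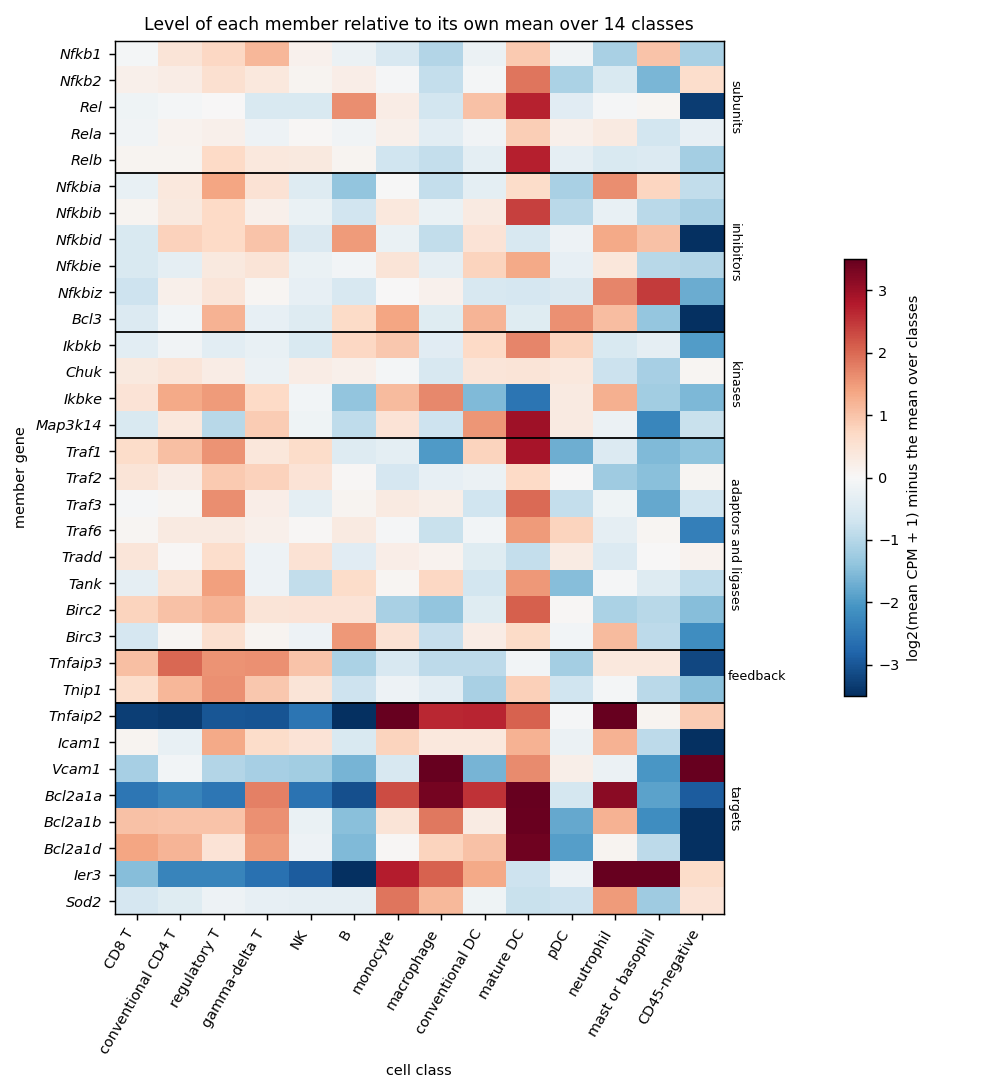
Level of each of the 33 members (rows, grouped by role) in each of 14 cell classes (columns). Colour is log2(CPM + 1) of the mean over the 4 libraries in the class, less the mean of that value over the 14 classes, and the colours stop at 3.5 in either direction. The mature dendritic cell column is the highest for 17 of the 33 genes.

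Among the subunits, Rel had the widest range over classes. Rel (ENSMUSG00000020275, chromosome 11, 23736847 to 23770970, GRCm38), which encodes c-Rel, the subunit best known from lymphocytes and antigen-presenting cells, stood at 2715, 2362, 2240 and 2610 CPM in mature dendritic cells in PBS 1, PBS 2, the anti-PD-1 library and the combination library. All later series of 4 values follow that order. The next classes were B cells at 1271, 1331, 1119 and 996 CPM and conventional dendritic cells at 757, 837, 754 and 756 CPM. These 3 classes did not overlap, and the lowest class was the CD45-negative cells at 41.6, 37.8, 31.8 and 38.2 CPM. Relb, the partner of the processed Nfkb2 product, stood at 683, 618, 675 and 735 CPM in mature dendritic cells, followed by regulatory T cells at 157, 161, 178 and 167 CPM. Nfkb2 itself, the precursor of the non-canonical subunit p52, stood at 225, 181, 264 and 209 CPM in mature dendritic cells. Its next classes, CD45-negative cells at 79.7 to 99.4 CPM and regulatory T cells at 77.1 to 110 CPM, overlapped each other. Nfkb1, the precursor of p50, was spread more evenly: its highest classes were gamma-delta T cells at 779, 1957, 1218 and 1361 CPM, mast cells or basophils at 1700, 1256, 1016 and 753 CPM and mature dendritic cells at 1219, 1307, 815 and 1093 CPM, and these ranges overlapped. Those classes held 11 to 57 cells per library. Rela, the main activating subunit of the canonical arm, ranged from 84.0 to 106 CPM in mature dendritic cells and from 55.9 to 69.6 CPM in neutrophils.

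The inhibitors had different leading classes. Nfkbia (ENSMUSG00000021025, chromosome 12, 55489410 to 55492647), which encodes IkB-alpha, the inhibitor that the factor itself induces, was highest in neutrophils at 1010, 1447, 927 and 1236 CPM and in regulatory T cells at 946, 846, 1021 and 1105 CPM. The ranges of these neighbours overlapped, and B cells were lowest at 157, 145, 118 and 154 CPM. Nfkbiz, which encodes the nuclear inhibitor IkB-zeta, had the widest range of the inhibitors, from 1291, 1519, 1322 and 854 CPM in mast cells or basophils through 791, 765, 661 and 718 CPM in neutrophils to 63.0, 74.7, 62.7 and 65.3 CPM in CD45-negative cells. Nfkbib, encoding IkB-beta, was at 275 to 329 CPM in mature dendritic cells against 77.7 to 106 CPM in regulatory T cells, the next class. Nfkbie, encoding IkB-epsilon, was at 122 to 137 CPM in mature dendritic cells against 74.5 to 107 CPM in conventional dendritic cells. Nfkbid, encoding a nuclear inhibitor of the same family, was at 130 to 173 CPM in B cells and 109 to 175 CPM in neutrophils, and at 2.32 to 2.90 CPM in CD45-negative cells. Bcl3, a further nuclear member, was at 66.1 to 95.6 CPM in plasmacytoid dendritic cells and 67.0 to 76.2 CPM in monocytes, against 1.16 to 1.48 CPM in CD45-negative cells.

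The kinases were high in the same mature dendritic cells with 1 exception. Map3k14, which encodes the NF-kB-inducing kinase of the non-canonical arm, stood there at 383, 443, 421 and 485 CPM. Conventional dendritic cells followed at 144, 161, 182 and 148 CPM, and mast cells or basophils were lowest at 24.1, 0, 6.96 and 10.6 CPM. Mature dendritic cells were thus above the next class in every library, while the lowest class rested on 0 to 3 UMIs per library. Ikbkb, the IKK-beta kinase of the canonical arm, was at 250 to 304 CPM in mature dendritic cells and 162 to 182 CPM in monocytes. Chuk, the IKK-alpha kinase, was at 47.2 to 81.1 CPM there, a range that held the whole range of conventional dendritic cells (62.1 to 67.2 CPM). Ikbke, a related kinase known from antiviral signalling, was the exception: it had 1, 1, 0 and 0 UMIs in mature dendritic cells and was highest in macrophages at 33.2 to 39.3 CPM and regulatory T cells at 28.0 to 33.5 CPM.

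Of the 8 adaptors and ligases, 5 had their highest mean in mature dendritic cells. Traf3, an adaptor that keeps the Map3k14 product low, had the widest range, with 649, 634, 692 and 810 CPM in mature dendritic cells, 487, 526, 547 and 628 CPM in regulatory T cells and 56.1, 42.4, 48.7 and 53.0 CPM in mast cells or basophils. The top classes of Traf3 did not overlap. Traf1 (ENSMUSG00000026875, chromosome 2, 34941750 to 34961772), an adaptor of TNF receptors, stood at 457, 516, 760 and 548 CPM in mature dendritic cells, 202, 224, 246 and 235 CPM in regulatory T cells and 14.1 to 26.2 CPM in macrophages, its lowest class. Tank (ENSMUSG00000064289, chromosome 2, 61578585 to 61654171), a Traf-binding protein that limits signalling, stood at 428, 646, 584 and 679 CPM in mature dendritic cells and 507, 568, 499 and 614 CPM in regulatory T cells, which overlapped. Birc2, encoding the ubiquitin ligase cIAP1, was at 245 to 372 CPM in mature dendritic cells and 141 to 164 CPM in regulatory T cells. Birc3, encoding the related cIAP2, led in B cells at 371 to 530 CPM and neutrophils at 273 to 460 CPM. Traf6, the adaptor of the interleukin-1 and Toll-like receptor branch, was at 156 to 251 CPM in mature dendritic cells and overlapped plasmacytoid dendritic cells (86.5 to 191 CPM). Traf2 and Tradd, which join TNF receptors to the ligases, were low in every class, with highest means in regulatory T cells at 29.1 to 33.5 CPM and 17.9 to 23.9 CPM. Tradd had its lowest mean in mature dendritic cells, at 2.25 to 12.2 CPM.

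The feedback genes led in T cells. Tnfaip3 (ENSMUSG00000019850, chromosome 10, 19000910 to 19015657) encodes A20, an enzyme that edits ubiquitin chains and shuts the canonical arm off. It stood at 957, 1056, 698 and 1025 CPM in conventional CD4 T cells, 713, 749, 557 and 730 CPM in regulatory T cells, 498, 506, 382 and 539 CPM in CD8 T cells and 26.8, 19.1, 17.7 and 33.5 CPM in CD45-negative cells. In each of these 4 classes the anti-PD-1 library was the lowest. Tnip1, encoding a partner of A20, was at 207 to 237 CPM in regulatory T cells and 150 to 183 CPM in conventional CD4 T cells.

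The target genes marked different cells. Tnfaip2, a TNF-induced gene, had the widest range: neutrophils stood at 1835, 1383, 2480 and 2030 CPM and monocytes at 331, 400, 422 and 389 CPM, while B cells held 0 UMIs in every library, which allows up to 6.49 CPM in the library with the fewest B cell UMIs. The adhesion molecule Vcam1 was at 143 to 180 CPM in CD45-negative cells and 30.5 to 69.6 CPM in macrophages. Icam1, another adhesion molecule, was at 118 to 156 CPM in regulatory T cells and 93.2 to 181 CPM in neutrophils. The survival genes Bcl2a1a, Bcl2a1b and Bcl2a1d were highest in mature dendritic cells, at 276 to 397, 1437 to 1721 and 322 to 606 CPM. Their values are uncertain as a split between copies, since 80.2%, 93.4% and 97.7% of the 31-base stretches at their 3′ ends also occur in other genes. Ier3, a stress-response gene, led in mast cells or basophils at 742 to 1731 CPM and neutrophils at 539 to 773 CPM. Sod2 (ENSMUSG00000006818, chromosome 17, 13006846 to 13040063), which encodes the mitochondrial superoxide dismutase, was at 193 to 327 CPM in monocytes and 152 to 228 CPM in neutrophils, and 16.8% of its 3′ stretches also occur elsewhere. Genes on the opposite strand overlap 10 members, among them Nfkb2, Nfkbib, Traf3 and Icam1, and whether the counting used strand is not stated. Map3k14 is overlapped by a gene on its own strand, and the part of that overlap in its counts was not tested.

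**Figure D2:**
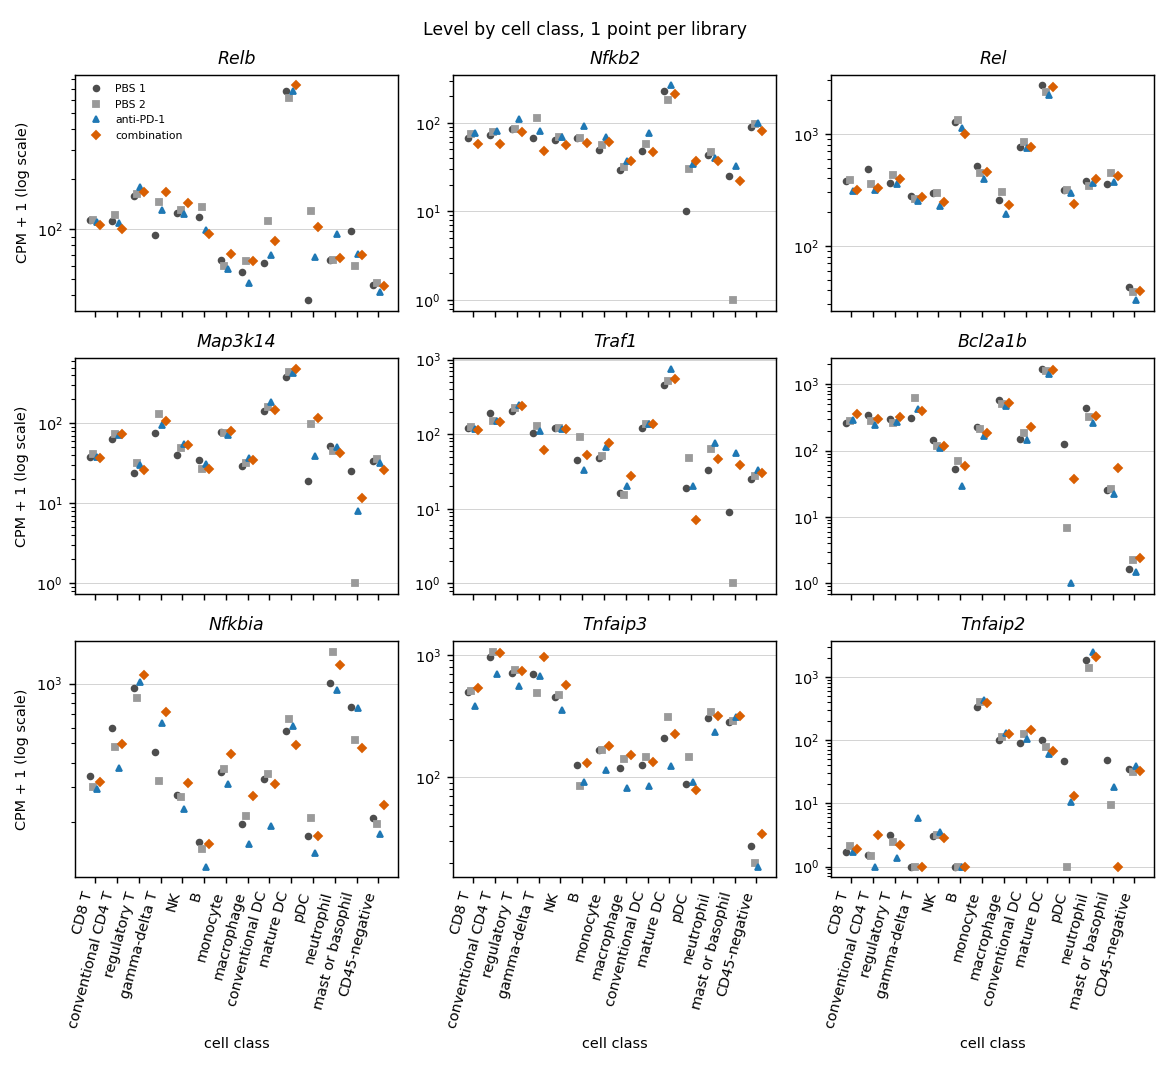
CPM + 1 on a log scale in each of the 4 libraries (1 point each) by cell class for 9 members, among them Rel, Relb, Map3k14 and Tnfaip2. Rel in mature dendritic cells lies at 2240 to 2715 CPM, above every other class, and Tnfaip2 is highest in neutrophils and at 0 UMIs in B cells.

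Pairs of members chosen for their link in the pathway varied together to different degrees over the 14 classes. For Relb and Nfkb2, the non-canonical pair, Pearson's r was 0.69 and Spearman's rho 0.52, and r fell to 0.37 over the 13 classes without mature dendritic cells. For the feedback genes Nfkbia and Tnfaip3 r was 0.62 and rho 0.66, with r of 0.64 without mature dendritic cells. For Rel and Nfkb1 r was 0.42 and rho 0.20, and for Traf1 and Birc3 both were 0.44. These classes share libraries and differ in depth, so the coefficients describe the 14 points only.

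Within classes, clusters differed as much as some classes did. Among CD8 T cells, the cluster led by Ifng, Ccl4, Ccl3 and Xcl1, genes that T cells transcribe on stimulation, had a mean of 1379 CPM for Nfkb1 (1157 to 1568 over the 4 libraries), against means of 411 to 646 CPM in the other CD8 clusters. Its Rel was at 742 CPM (562 to 1080) and its Bcl2a1b at 703 CPM (632 to 761), while Bcl2a1b was at 21.1 and 68.3 CPM in the clusters with naive-like markers. A conventional CD4 cluster led by Tnfsf8, Tnfsf11 and Penk had Nfkb1 at 1501 CPM (964 to 2158) and Rel at 711 CPM (486 to 924), against 664 and 291 CPM in the other CD4 cluster. Among monocytes, the cluster led by Adgre4 and Ace, markers of patrolling monocytes, had Rel at 889 CPM (793 to 1046) and Map3k14 at 213 CPM (186 to 241). The monocyte cluster led by Chil3, Ifi205 and Ifi204 had Sod2 at 418 CPM (358 to 510). In neutrophils, Tnfaip2 was at 2733 CPM (2466 to 3185) in the S100a9 and Retnlg cluster and at 417 CPM (321 to 480) in the Cxcl2 cluster. The clusters come from the same cells, so these differences carry no test.

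**Figure D3:**
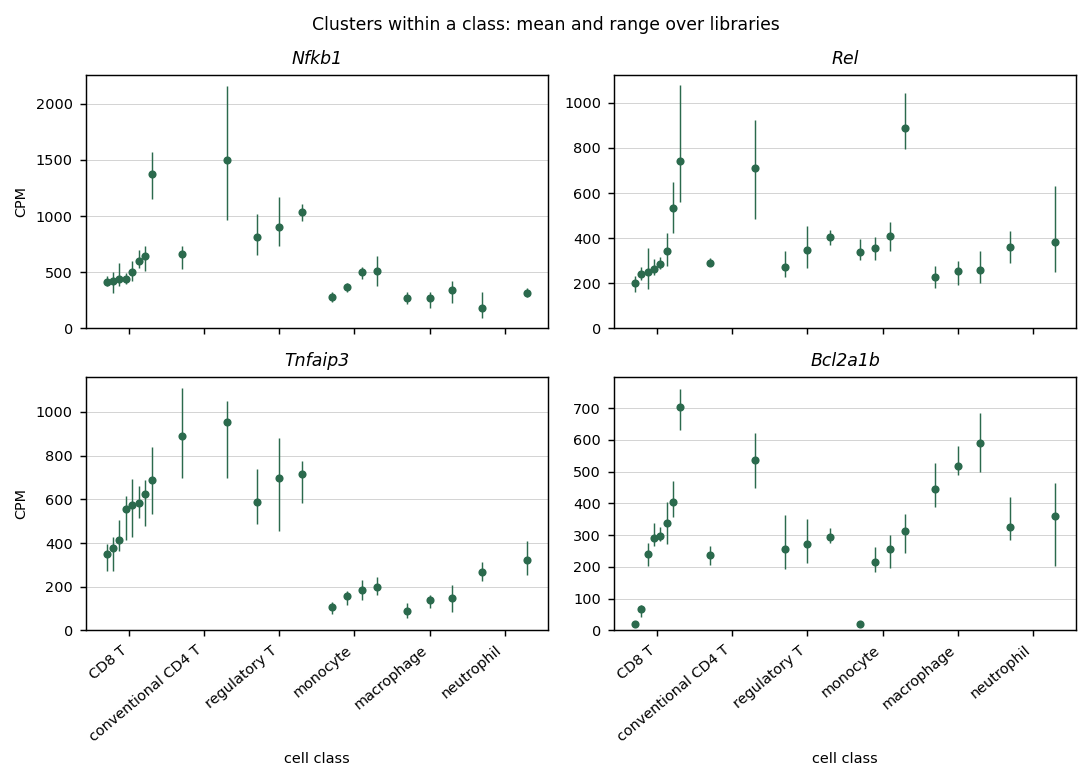
Mean CPM of Nfkb1, Rel, Tnfaip3 and Bcl2a1b (1 panel each, vertical axis from 0) in each cluster of 6 cell classes, with bars from the lowest to the highest of the 4 libraries. The highest CD8 point for Nfkb1, at 1379 CPM, is the cluster led by Ifng and Ccl4, and the highest monocyte point for Rel, at 889 CPM, is the cluster led by Adgre4 and Ace.

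The receptor of TL1A was rare. Tnfrsf25 was highest in gamma-delta T cells at 43.5, 16.2, 24.8 and 50.2 CPM, which rested on 11, 1, 5 and 15 UMIs. Conventional CD4 T cells followed at 16.8, 14.7, 14.5 and 8.86 CPM, regulatory T cells at 2.94, 5.84, 2.52 and 3.03 CPM and CD8 T cells at 1.31, 1.22, 1.14 and 0.669 CPM. Monocytes and macrophages held 0 or 1 UMI of Tnfrsf25 in each library, at most 0.241 CPM. Conventional CD4 T cells therefore lay above regulatory and CD8 T cells in every library. Tnfsf15, the gene of TL1A itself, had 6, 13, 3 and 16 UMIs in macrophages, or 0.733, 1.55, 0.634 and 2.04 CPM, and 1, 2, 2 and 0 UMIs in mature dendritic cells.

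Treatment was compared in the 9 classes that had at least 50 cells in every library, with counts summed per class and library. The test was edgeR's quasi-likelihood fit over all genes of a class, with Benjamini-Hochberg adjustment and 0.05 as the threshold. Each treated group had 1 library, so the spread was that of the PBS pair, p-values measure only the spread between those libraries, and the comparison of the treated libraries with each other compares libraries and not conditions. CPM in these comparisons were scaled by edgeR's TMM factors, and fold changes are log2 with their standard error (SE).

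Monocytes and macrophages (751 to 1208 cells per library) were the class with the most members past the threshold. In the anti-PD-1 library 9 of 33 members were higher and 2 lower than in PBS (33.3%), where 11% of all 14624 genes tested passed, 6.02% higher and 5% lower. In the combination library 4 were higher and 1 lower (15.2%), against 5.89% of all genes, 3.73% higher and 2.15% lower. Between the treated libraries, 3 were higher in the combination library and 0 lower (9.09%), against 6.21% of all genes, 3.4% higher and 2.81% lower. The median log2 fold change was 0.06, 0.16 and 0.06 over the members in the 3 comparisons, against -0.01, -0.02 and 0.00 over all genes tested. By role, 2 of 5 subunits, 1 of 6 inhibitors, 2 of 4 kinases, 1 of 8 adaptors and ligases and 3 of 8 targets were higher in the anti-PD-1 library than in PBS, and 1 adaptor and 1 of 2 feedback genes were lower.

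**Figure D4:**
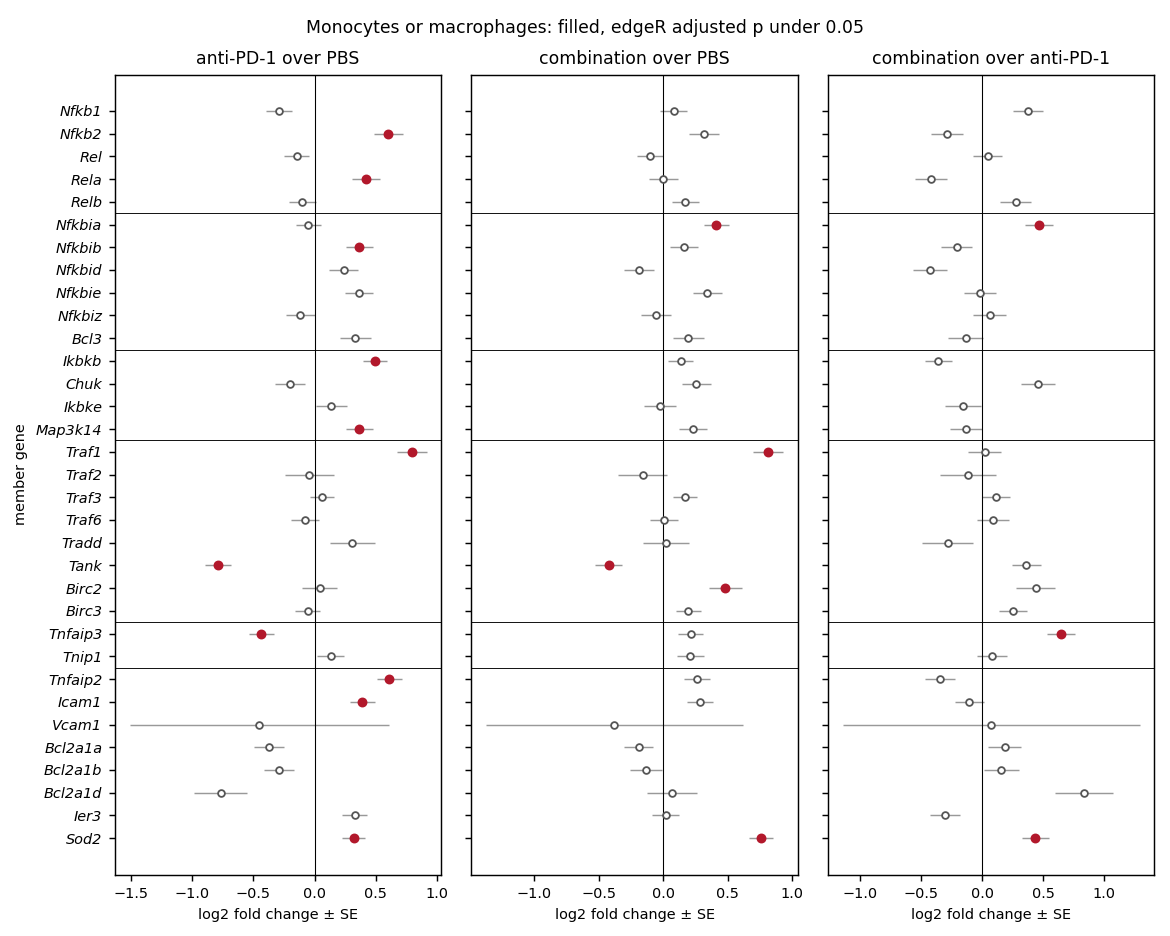
Log2 fold change with SE (points and bars) of each of the 33 members in monocytes and macrophages in the anti-PD-1 library over PBS, the combination library over PBS and the combination over the anti-PD-1 library. Members past an adjusted p of 0.05 by edgeR are marked: 11, 5 and 3 in the 3 comparisons.

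Sod2 and Traf1 were higher than PBS in both treated libraries, and Tank was lower. Sod2 stood at 144 and 140 CPM in the PBS pair, 177 CPM in the anti-PD-1 library and 240 CPM in the combination library. The combination library lay above the PBS pair (log2 fold change 0.75, SE 0.0921, edgeR adjusted p = 3.36e-05) and above the anti-PD-1 library (0.44, SE 0.110, edgeR adjusted p = 0.0255). Anti-PD-1 lay above PBS by 0.32 (SE 0.0957, edgeR adjusted p = 0.0386). The difference of Sod2 between the combination library and PBS passed the threshold in 10 of 10 alternative analyses, among them DESeq2 (adjusted p = 0.000465) and monocytes and macrophages taken singly (0.66 and 0.74). Unscaled levels were 216, 207, 193 and 327 CPM in monocytes and 113, 115, 145 and 190 CPM in macrophages, so the combination library was highest in both and the anti-PD-1 library differed in direction between them. For anti-PD-1 against PBS, macrophages alone gave 0.47 and monocytes alone gave -0.07. The monocyte cluster led by Chil3, Ifi205 and Ifi204, whose Sod2 level is given above, held 95, 108, 148 and 187 of 468, 420, 810 and 677 monocytes. The part in the Sod2 values of this cluster and of the macrophage share, given below, was not tested.

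Traf1 stood at 24.9, 25.1, 43.3 and 43.9 CPM, so the treated libraries were alike and both above the PBS pair. The log2 fold change was 0.79 (SE 0.122, edgeR adjusted p = 0.000434) for anti-PD-1 and 0.81 (SE 0.116, edgeR adjusted p = 0.000184) for the combination. With DESeq2 the combination missed the threshold (adjusted p = 0.116), and no adjusted p was given for anti-PD-1. Traf1 is also a gene of T cells, at 112 to 126 CPM in the CD8 class, and the sum of 5 T cell markers (Cd3d, Cd3e, Cd3g, Trac and Trbc2) in the monocyte and macrophage class was 69.0, 67.5, 59.2 and 243 CPM. In the CD8 class that sum was 3278 to 4136 CPM. The marker sum was highest in the combination library and lowest in the anti-PD-1 library. Its part in the Traf1 values of either treated library was not tested. Monocytes stood at 46.8, 50.7, 65.7 and 74.4 CPM of Traf1 before scaling, and macrophages at 14.1 to 26.2 CPM, with both treated libraries above the PBS pair in each. For anti-PD-1 monocytes alone gave 0.50 and macrophages alone 0.51, neither past the threshold (edgeR adjusted p = 0.108 and 0.185). For the combination they gave 0.64 and 0.86, both past it (edgeR adjusted p = 0.0137 and 0.0330). Macrophages made up 46.1%, 44.1%, 32.9% and 38.6% of the cells of the class, so monocytes, where Traf1 was higher, were a larger share of the treated libraries. The part of that share in the class values was not tested.

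Tank stood at 352, 347, 203 and 261 CPM, with both treated libraries below the PBS pair. The log2 fold change was -0.79 (SE 0.105, edgeR adjusted p = 0.000122) for anti-PD-1 and -0.42 (SE 0.102, edgeR adjusted p = 0.0170) for the combination. DESeq2 also called the first (adjusted p = 1.32e-05) but not the second (adjusted p = 0.216). For anti-PD-1, monocytes alone gave -0.46 (edgeR adjusted p = 0.0550) and macrophages alone -0.82 (edgeR adjusted p = 0.0116). For the combination they gave -0.04 (edgeR adjusted p = 0.974) and -0.54 (edgeR adjusted p = 0.0283). Tank stood at 415, 419, 217 and 285 CPM in macrophages and at 226, 242, 162 and 224 CPM in monocytes. The part in the class value of the macrophage share, which was lower in the treated libraries, was not tested.

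Of the feedback genes, Tnfaip3 differed between the treated libraries, while Tnip1 did not pass (0.08, edgeR adjusted p = 0.767). Tnfaip3 stood at 132, 143, 102 and 160 CPM: the anti-PD-1 library was lowest and the combination library highest. The combination library lay above the anti-PD-1 library by 0.65 (SE 0.116, edgeR adjusted p = 0.00315), a difference that passed the threshold in 10 of 10 alternatives, and the anti-PD-1 library lay below PBS by -0.43 (SE 0.103, edgeR adjusted p = 0.0106; DESeq2 adjusted p = 0.127). The combination library against PBS gave 0.21 and did not pass (edgeR adjusted p = 0.238). For anti-PD-1 over PBS, monocytes alone gave -0.48 and macrophages alone -0.55, and neither passed. Nfkbia, which encodes an inhibitor, stood at 244, 256, 241 and 333 CPM, with the combination library above the other 3. Its log2 fold change was 0.41 (SE 0.0978, edgeR adjusted p = 0.0157) over PBS and 0.46 (SE 0.116, edgeR adjusted p = 0.0241) over anti-PD-1, and DESeq2 called neither (adjusted p = 0.174 and 0.0646). Over PBS, monocytes alone gave 0.30 and macrophages alone 0.42, and neither passed. Over anti-PD-1 they gave 0.47 and 0.70, and only macrophages passed. The ligase gene Birc2 stood at 25.4, 23.8, 25.3 and 34.3 CPM, highest in the combination library (0.48 over PBS, SE 0.130, edgeR adjusted p = 0.0340). DESeq2 did not call it, and its difference between the treated libraries did not pass. For the combination over PBS, monocytes alone gave 0.55 and macrophages alone 0.41, and neither passed. T cells also held transcripts of these genes. Before scaling, conventional CD4 T cells stood at 698 to 1056 CPM of Tnfaip3, and regulatory T cells at 846 to 1105 CPM of Nfkbia and 141 to 164 CPM of Birc2. The T cell marker sum given above was highest in the combination library. The part of that sum and of the macrophage share in these values was not tested.

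The other 7 members called in the anti-PD-1 library were all higher than in the PBS pair. Tnfaip2 stood at 171, 197, 281 and 221 CPM (0.61, SE 0.103, edgeR adjusted p = 0.00112), and DESeq2 also called it. Nfkb2 stood at 34.3, 37.3, 54.4 and 44.6 CPM (0.60, SE 0.117, edgeR adjusted p = 0.00271). Ikbkb stood at 93.7, 91.6, 130 and 102 CPM (0.49, SE 0.0967, edgeR adjusted p = 0.00279). In these 3 genes the combination library lay between the PBS pair and the anti-PD-1 library, and its own difference from PBS did not pass. Rela stood at 41.5, 43.4, 56.9 and 42.5 CPM (0.42, SE 0.113, edgeR adjusted p = 0.0210), with the combination library inside the range of the PBS pair. Icam1 stood at 69.2, 72.5, 92.8 and 86.3 CPM (0.39, SE 0.101, edgeR adjusted p = 0.0179). Nfkbib, at 49.3, 54.0, 66.6 and 57.6 CPM, and Map3k14, at 43.0, 43.7, 55.8 and 50.9 CPM, each rose by 0.37 (edgeR adjusted p = 0.0402 and 0.0430). Of these 7, DESeq2 called Tnfaip2 only. None of the 7 passed in monocytes alone or in macrophages alone by edgeR. Tnfaip2 gave 0.28 in monocytes and 0.41 in macrophages (edgeR adjusted p = 0.352 and 0.0726), Ikbkb gave 0.21 and 0.34 (edgeR adjusted p = 0.539 and 0.140), and Nfkb2 gave 0.46 and 0.43 (edgeR adjusted p = 0.142 and 0.153). Map3k14 gave -0.02 and 0.42. The part in these 7 values of the lower macrophage share in the treated libraries, given above, was not tested. DESeq2 also called Bcl2a1d lower in the anti-PD-1 library, which edgeR did not (-0.77).

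**Figure D5:**
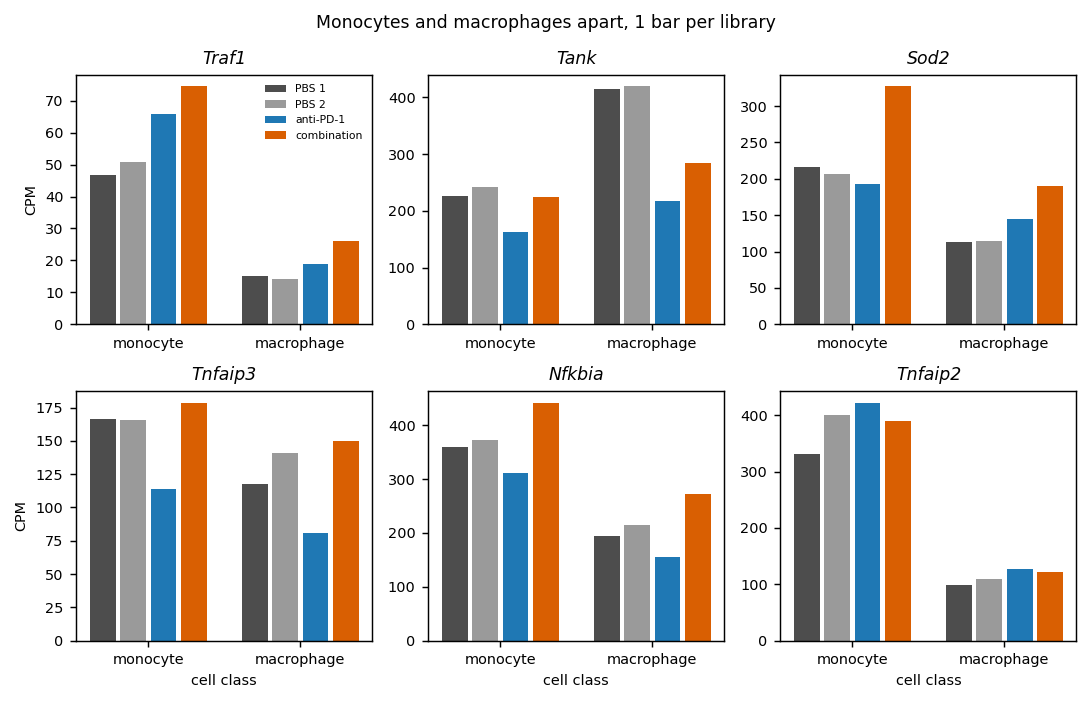
CPM (vertical axis from 0) in monocytes and in macrophages taken apart, 1 bar per library, for Traf1, Tank, Sod2, Tnfaip3, Nfkbia and Tnfaip2. Tank is lowest in the anti-PD-1 library in both cell types, at 162 and 217 CPM, and Sod2 is highest in the combination library in both.

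Other genes of the pathway were taken from lists of 17 receptors, 34 signalling components and 38 further targets. Their counts stand beside 6.02% of all genes higher and 5% lower in the anti-PD-1 library, and 3.73% higher and 2.15% lower in the combination library. In monocytes and macrophages, 3 of 15 receptors tested were higher in the anti-PD-1 library and 0 lower: Ltbr, the lymphotoxin receptor, at 36.5, 35.5, 50.6 and 39.0 CPM, Cd40, the receptor of T cell help, and Tnfrsf1a, a TNF receptor. In the combination library 6 of 15 were higher and 0 lower, with Tnfrsf9 at 14.8, 13.0, 13.7 and 55.9 CPM and Tnfrsf4 at 6.20, 4.63, 7.28 and 22.4 CPM, followed by Tnfrsf18 (1.62) and Il18r1 (1.35). Tnfrsf9, Tnfrsf4 and Tnfrsf18 encode costimulatory receptors best known from T cells, and the T cell marker sum given above was also highest in the combination library. The part of T cell transcripts in these values, and so in the count of receptors, was not tested. The signalling components gave 3 higher and 1 lower of 34 in the anti-PD-1 library, among them Sharpin and Rnf31, subunits of the linear ubiquitin ligase (0.53 each), and 1 higher and 1 lower in the combination library, Malt1 (0.38) and Otulin (-0.49). These signalling counts were near the shares over all genes and are no result about the list. Of 35 targets tested, 6 were higher and 4 lower in the anti-PD-1 library, and 8 higher and 2 lower in the combination library. The chemokine gene Ccl5 stood at 176, 145, 424 and 471 CPM, above PBS in both treated libraries. Ptgs2, the inducible cyclooxygenase, stood at 49.9, 59.5, 55.3 and 97.9 CPM, high in the combination library alone (0.84, SE 0.110, edgeR adjusted p = 0.000104). Of 2 genes of neutrophil attractants, Cxcl1 gave -1.02 for anti-PD-1 over PBS and Cxcl2 gave -0.72 for the combination over PBS, and neither passed in the other treated library.

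In the CD45-negative cells, 2 of 31 members tested were higher and 1 lower in the anti-PD-1 library (9.68%; 4.08% of all genes). Nfkbib stood at 20, 22.3, 30.5 and 26.9 CPM (0.54, SE 0.148, edgeR adjusted p = 0.0258), Traf1 at 23.7, 25.0, 34.4 and 29.3 CPM (0.50, SE 0.142, edgeR adjusted p = 0.0322) and Chuk at 54.6, 50.9, 38.7 and 57.3 CPM (-0.45, SE 0.132, edgeR adjusted p = 0.0372). The anti-PD-1 library was the extreme one for each of these genes. In the combination library 0 members passed (2.37% of all genes; 8 members at an unadjusted p under 0.05), and against the anti-PD-1 library Chuk (0.57, edgeR adjusted p = 0.0192) and Tank (118, 103, 86.8 and 127 CPM; 0.54, edgeR adjusted p = 0.0304) were higher (6.45%; 3.12% of all genes). DESeq2 called 0 members in all 3 comparisons. For anti-PD-1 over PBS it gave no adjusted p for Nfkbib, Traf1 and Chuk, whose DESeq2 log2 fold changes were 0.53, 0.49 and -0.45. Of the further targets, Nos2, the inducible nitric oxide synthase, stood at 23.2, 24.3, 24.8 and 54.0 CPM, higher in the combination library than in the other 3. Cxcl1 was lower in the anti-PD-1 library than in PBS (-0.58, edgeR adjusted p = 0.00637) and higher in the combination than in the anti-PD-1 library (0.93, edgeR adjusted p = 5.15e-05).

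In NK cells 1 of 32 members passed, Bcl2a1d in the anti-PD-1 library (3.12%; 2.06% of all genes). It stood at 59.2, 35.0, 27.7 and 39.7 CPM, so the PBS libraries differed from each other by more than PBS 2 differed from the anti-PD-1 library, and the log2 fold change of -0.77 (SE 0.178, edgeR adjusted p = 0.00538) became -0.32 without PBS 1 and -1.10 without PBS 2. The combination library gave 0 members against PBS (2.24% of all genes; 4 members at an unadjusted p under 0.05) and 0 against anti-PD-1 (1.6%; 8 members). DESeq2 called 0 in each of the 3, but gave no adjusted p for Bcl2a1d in the anti-PD-1 library (log2 fold change -0.76).

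CD8 T cells, of which the libraries held 1250 to 2506, gave 0 of 33 members past the threshold by edgeR and by DESeq2 in every comparison. In the order anti-PD-1 over PBS, combination over PBS and combination over anti-PD-1, 0.0544%, 0.306% and 0% of all 14709 genes passed, and 6, 9 and 6 members had an unadjusted p under 0.05. The subunit Nfkb1 stood at 602, 584, 529 and 542 CPM and Rel at 385, 372, 321 and 311 CPM, both lower in the treated libraries by less than the test resolves (edgeR adjusted p of 0.300 to 0.683). Tnfaip3 stood at 502, 486, 400 and 533 CPM, with the anti-PD-1 library lowest. Nfkb2 stood at 67.7, 70.3, 78.8 and 55.7 CPM and Nfkbid at 42.1, 37.2, 42.7 and 28.7 CPM, both lowest in the combination library. Ier3 stood at 7.80, 9.64, 15.4 and 14.8 CPM, higher in both treated libraries (0.82, SE 0.185, edgeR adjusted p = 0.122, for anti-PD-1). Clusters with naive-like markers made up 35.8%, 28.1%, 21.7% and 14.2% of the CD8 class, and the part of that share in these values was not tested. Without those clusters edgeR called Ier3 higher than PBS in both treated libraries (0.91, adjusted p = 0.00444, and 0.76, adjusted p = 0.0192). Between the treated libraries it then called Nfkb2 (-0.50) and Nfkbid (-0.58) lower and Bcl2a1d (0.61) higher in the combination library. The count of 0 also depended on the filter on low counts: without it edgeR called 2, 4 and 3 members. With low copies of shared barcodes kept it also called 2, 4 and 3. The shares over all genes given above are those of the main fit. Shares without the naive-like clusters, without the filter and with low copies kept are not given here.

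The other T cell classes gave 0 members by both tools. In regulatory T cells (30 tested) 0.156%, 0.208% and 0.0693% of all genes passed, and 6, 1 and 3 members had an unadjusted p under 0.05. Nfkb2 stood there at 84.6, 81.9, 114 and 77.5 CPM, highest in the anti-PD-1 library (0.45, SE 0.151, edgeR adjusted p = 0.267), and Nfkbia at 958, 820, 1054 and 1111 CPM, higher in both treated libraries but within the error (edgeR adjusted p = 0.673 and 0.688). The chemokine target Ccl3 did pass in regulatory T cells, at 48.5, 46.2, 140 and 138 CPM. In conventional CD4 T cells, the class with the most Tnfrsf25 among those tested, 0 of 30 members passed, against 0.0671%, 0.0862% and 0.115% of all genes, with 2, 0 and 1 members at an unadjusted p under 0.05.

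The remaining classes were small and also gave 0 members by both tools. In B cells (27 tested) 0.224%, 0.283% and 0.269% of all genes passed, with 5, 2 and 3 members at an unadjusted p under 0.05. In conventional dendritic cells (31 tested) the shares were 0.0952%, 0.262% and 0.143%, with 4, 1 and 4 members. In neutrophils (30 tested) they were 0.0177%, 0.0177% and 0.0531%, with 1, 0 and 1 members. The biological coefficient of variation of the PBS pair was 12.1%, 14.8% and 23.0% in these 3 classes, against 7.68% in monocytes and macrophages and 9.09% in CD8 T cells, so a count of 0 there says that no change was detectable at this spread. The target Ccl5 passed in conventional dendritic cells (1.92 for anti-PD-1 and 2.19 for the combination). Ccl5 is also a gene of T cells, and the sum of the 5 T cell markers in that class was 16.4, 17.6, 71.7 and 44.3 CPM, higher in both treated libraries. Its part in the Ccl5 values was not tested.

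Whether a response differed between classes was tested directly in 3 pairs of classes and both treated libraries, 6 contrasts over 16298 genes. The fit had no term for library, so the sums of different classes of the same library entered as separate samples. Its spread was estimated over all tested classes together, which differed in their own spread. By edgeR 0 of 33 members passed in each. For CD8 T cells less monocytes and macrophages, 0.00614% of all genes passed for anti-PD-1 and 0.307% for the combination, with 3 and 9 members at an unadjusted p under 0.05. For CD8 T cells less regulatory T cells the shares were 0% and 0.00614%, with 2 and 1 members. For monocytes and macrophages less CD45-negative cells they were 0% and 0%, with 1 and 6 members. DESeq2 called 5 member contrasts, all in the combination library: Traf1 (-0.94, adjusted p = 0.0147), Birc3 (-0.55, adjusted p = 0.0113) and Nfkb2 (-0.63, adjusted p = 0.000278) for CD8 T cells less monocytes and macrophages, and Birc2 (0.82, adjusted p = 0.0191) and Nfkb2 (0.50, adjusted p = 0.0156) for monocytes and macrophages less CD45-negative cells. The shares above are those of edgeR. The share of all genes that DESeq2 called was not counted, so its 5 calls are not read as a result about the members. A count of members past the threshold in monocytes and macrophages and of 0 in CD8 T cells is therefore not shown by edgeR to be a difference between these classes.

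The anti-PD-1 library stood apart over many genes at once. Of 2897 genes with at least 20 CPM in each of the 9 classes, 14.3% had their lowest value in the anti-PD-1 library in at least 8 classes, and 4 of the 20 members in that set did so: Tank, Tnfaip3, Nfkbia and Chuk. The combination library was lowest in at least 8 classes for 1.9% of these genes and for 1 member, Nfkb2. A list of 24 genes of handling stress and the immediate early response, which share inducers with NF-kB, had its lowest sum in the anti-PD-1 library in 8 of the 9 classes, all but neutrophils. In monocytes and macrophages that sum was 8819, 8432, 8060 and 8708 CPM, and Zfp36, one of its genes, stood at 248, 207, 208 and 451 CPM. The part of depth, handling and library in the values of Tank, Tnfaip3, Nfkbia and Chuk was not tested, and with 1 library a treated group, treatment and library cannot be told apart.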

How the data were processed

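Single-cell libraries of MC38b tumours were analysed from the deposited matrices, in which the authors deposited raw UMI counts for each gene and barcode. Per the file headers Cell Ranger 7.1.0 made them, while version 3.0.2 of Cell Ranger and the mm10 build stand in the submitters' processing notes. The counting of intronic reads is not stated. The 33 members, the other gene lists and the tests were chosen with earlier results of these data known.

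Barcodes shared between libraries were found after seeing the data, and a copy with fewer than 1 UMI for every 8 of the other copy was removed. Barcodes with at least 200 genes and at most 15% mitochondrial UMIs were kept, and the highest Scrublet scores were removed at 0.8% per 1000 barcodes, since the automatic threshold marked almost no cell. Cells were clustered with scanpy 1.11.5 and Leiden (leidenalg 0.10.2, seed 1) on 2000 variable genes without the members and pathway genes, and named from marker genes. Clusters with a median under 2000 UMIs were left out. Classes of at least 50 cells in each library were tested: the summed counts of a class in each library were fitted with edgeR 4.0.16 (R 4.3.3; TMM, filterByExpr with a minimum of 10, robust quasi-likelihood fit by group, Benjamini-Hochberg adjustment over all genes of a class and comparison, threshold 0.05). SEs were derived from the F statistic. The PBS pair differed by 61.7 chi-square units per degree of freedom over 18926 genes and was treated as 2 samples. The code was tested on simulated counts. Alternatives were DESeq2 1.42.0, other size factors, no filter on low counts, thinning to equal totals, other clusterings, other cell filters, parts of a class and leaving out each PBS library.

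Every member past the threshold in a class and comparison was named (at most 12, by size of change), with the member of widest range in each role; of each other list at most 4 genes past the threshold per class and comparison were open to naming.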

Additional observations from a re-analysis of the deposited data

How the results depend on the processing

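Counts of members past the threshold moved with the tool and the filters. Summed over classes, anti-PD-1 over PBS gave 15 and DESeq2 3. The combination over PBS gave 5, against 1 with DESeq2, 12 with no filter on low counts and 11 with low copies of shared barcodes kept (chosen after seeing the data). The combination over anti-PD-1 gave 5, against 1 with DESeq2, 14 with no filter, 13 with totals thinned, 10 at higher resolution, 8 with doublets kept and 18 with low copies kept. In monocytes and macrophages, anti-PD-1 over PBS gave 11, against 3 with DESeq2, 1 in monocytes alone and 3 in macrophages alone. The member called in monocytes alone was not among the 11. Of the 3 in macrophages alone, only Sod2 and Tank were among them, and of the 3 with DESeq2, only Tank and Tnfaip2. The combination over PBS gave 5, against 1, 2 and 3. The combination over anti-PD-1 gave 3, against 1 with DESeq2, 7 with no filter, 10 thinned, 6 at higher resolution, 6 with low-UMI clusters kept and 11 with low copies kept. In CD45-negative cells, anti-PD-1 over PBS gave 3, against 0 with DESeq2, 0 with RLE size factors and 0 with low-UMI clusters kept. The combination over PBS gave 0, against 2 with no filter, 1 thinned, 1 with doublets kept and 2 with low copies kept. The combination over anti-PD-1 gave 2, against 0 with DESeq2, 1 with RLE size factors, 4 with no filter and 0 with low-UMI clusters kept. In NK cells the 1 call became 0 with DESeq2, RLE size factors or thinning. DESeq2 gave no adjusted p for 5 of the 25 single calls of the main fit. Among these were the NK call and the 3 calls in CD45-negative cells for anti-PD-1 over PBS. The test between classes gave 0 with edgeR and 5 with DESeq2. The share of all genes called under each alternative is not given here, so these moves are not read as results about the members. Their cause was not tested.

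In monocytes alone, anti-PD-1 over PBS turned direction for Map3k14 (-0.0178) and Sod2 (-0.0674). Of 273 values of single called members under alternatives, 208 were counted as kept, 60 lost the call, 3 moved by more than the SE and 2 turned. The 40 values with a PBS library left out had no p-value. For these, kept means the same direction and a shift below the SE, and the 3 that moved were of this kind. For the other values, kept means the same direction and side of the threshold. Leaving out either PBS library kept the direction in 40 of 40 values over PBS, and gave no test, as no residual degree of freedom was left. No paired analysis was possible because each treated group has 1 library and shares fewer than 2 replicate numbers with PBS. Small classes, the shallow anti-PD-1 library and 1 library a treated group limit every count given here.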

Other observations

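One gene outside the pathway lists moved with the combination library in several classes. Zfp36 encodes tristetraprolin, a protein known to speed the decay of Tnf and other inflammatory transcripts, and it belongs to the list of 24 handling and immediate early genes. It was higher in the combination library than in PBS in B cells (log2 fold change 1.29, edgeR adjusted p = 0.000225), CD45-negative cells (1.22, edgeR adjusted p = 1.09e-07), NK cells (1.04, edgeR adjusted p = 2.20e-11), monocytes and macrophages (0.99, edgeR adjusted p = 2.56e-05) and regulatory T cells (0.81, edgeR adjusted p = 0.0235). In B cells it stood at 127, 148, 110 and 333 CPM and in NK cells at 53.4, 52.5, 35.2 and 109 CPM in PBS 1, PBS 2, the anti-PD-1 library and the combination library. The combination library was the highest of the 4 in each of these classes. Other genes of that list did not all move with it. In monocytes and macrophages 3 of 24 were higher and 3 lower in the combination library than in PBS. Of all genes tested there, 3.73% were higher and 2.15% lower. Egr1 fell by 0.58 and Egr2 by 0.71 on the log2 scale.

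In NK cells Lta, which encodes lymphotoxin-alpha, was lower in both treated libraries, at 7.39, 7.27, 2.48 and 2.52 CPM (edgeR adjusted p = 0.00437 for anti-PD-1 and 0.00155 for the combination). The treated libraries lay together below the PBS pair. These genes were chosen after their values were seen, from those past the threshold.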
